A study of Mus musculus with 12 samples.

Results

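The plasma cell program genes examined here are 8 genes that mark or run the antibody-secreting state of B cells, Mzb1, Derl3, Xbp1, Prdm1, Irf4, Pou2af1, Tnfrsf17 and Sdc1. They were chosen by name, with earlier results of these data known. All 8 were found by their gene symbols among the 55414 genes of the deposited table. The values are from whole lungs of 12 C57BL/6J mice instilled with lipopolysaccharide (LPS), a cell wall component of bacteria that induces acute lung injury, and taken on day 4. The 6 mice of the IL-10 B-KO group came from crosses of a floxed Il10 line with the mb1-Cre line, and the other 6 formed the IL-10 B-WT group. The mb1-Cre driver is placed in Cd79a, the gene of a B cell receptor signaling chain, and acts throughout the B cell lineage. The exact alleles of the IL-10 B-WT mice, the number of Cre copies and the age of the mice are not given in the sources used here. No mice without LPS were measured, so that all values describe the injured lung. The comparison asks how the transcripts of the antibody-secreting program in the lung differ when B cells cannot make IL-10.

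When a B cell becomes a plasma cell, the transcription factors IRF4 and BLIMP-1 (encoded by Prdm1) shut down B cell genes and turn on secretion. XBP1, spliced by IRE1 under stress of the endoplasmic reticulum (ER), enlarges the ER, where MZB1 and Derlin-3 (Derl3) assist the folding or the disposal of proteins. OCA-B (Pou2af1) is a coactivator of immunoglobulin transcription that B cells already make, BCMA (Tnfrsf17) receives survival signals from APRIL and BAFF, and syndecan-1 (Sdc1, CD138) is a surface proteoglycan used to sort plasma cells, which epithelium also makes.

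Expression is given as TPM, a unit of transcript abundance, that divides reads by gene length and scales each library to the same total, so that levels of different genes can be compared but the sequencing depth is unknown. Log2 fold changes are differences of mean log2(TPM + 1), IL-10 B-KO minus IL-10 B-WT, and understate changes of genes with low TPM. Genes were called with limma when the adjusted p was at most 0.05 and the log2 fold change at least 1 in size, among 15148 genes with at least 1 TPM in at least 6 libraries. The exact permutation tests are two-sided and can give no p below 0.00216 with 6 lungs against 6. In whole lung, fewer cells of a type and less RNA per cell cannot be told apart.

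The libraries carried the lung markers in every lung, and the 8 lung marker genes together came to between 31380 and 104300 TPM in the IL-10 B-WT lungs and between 23480 and 113400 TPM in the IL-10 B-KO lungs. The targeted gene, Il10, was at 0.88 TPM or less in all 12 lungs and did not separate the genotypes (exact permutation test, p = 0.745, n = 6). Cd79a, the site of the driver, was at 15.3 TPM or more in the IL-10 B-WT lungs and at 5.73 TPM or less in the IL-10 B-KO lungs. IL-10 B-WT replicate 2 stood apart by its B-lineage transcripts, with 15.4% of its TPM in immunoglobulin genes, so that several results are also given without it. The remaining IL-10 B-WT lungs had between 0.248% and 2.19%, and the IL-10 B-KO lungs between 0.00199% and 0.0647%.

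The members differed in how far apart the genotypes lay. Mzb1, Derl3, Irf4 and Tnfrsf17 were lower in each of the 6 IL-10 B-KO lungs than in every IL-10 B-WT lung, and Pou2af1 was lower in 5 of them. Xbp1, by contrast, had nearly the same mean in both genotypes, Prdm1 differed by less than the test could call, and the point estimate of Sdc1 went the other way. Among the 7 members that passed the filter on low values, 1 was called lower (Mzb1) and 0 higher, where 0.469% of all genes tested were called lower. By unadjusted p of at most 0.05, 4 were lower (Mzb1, Derl3, Pou2af1 and Irf4), against 5.71% of all genes, and 1 was higher (Sdc1), against 6.83%. Non-overlapping groups with lower values in the IL-10 B-KO lungs were found for 3 of the 7, against 0.924% of all genes, and for Tnfrsf17, which did not pass the filter. The median log2 fold change of the 7 was -1.14, and -0.68 with IL-10 B-WT replicate 2 left out, where that of all genes tested was 0.10 and 0.14. The filter asks for 6 libraries, the size of 1 group, so that a gene high in 1 genotype can pass through it alone. Mzb1, Pou2af1, Cd79a and Jchain reached 1 TPM in 8 libraries, among them all 6 IL-10 B-WT lungs. Calls and counts of such genes thus depend in part on the filter. Because the members were also chosen with earlier results known, the shares over all genes are given as a description.

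**Figure D1:**
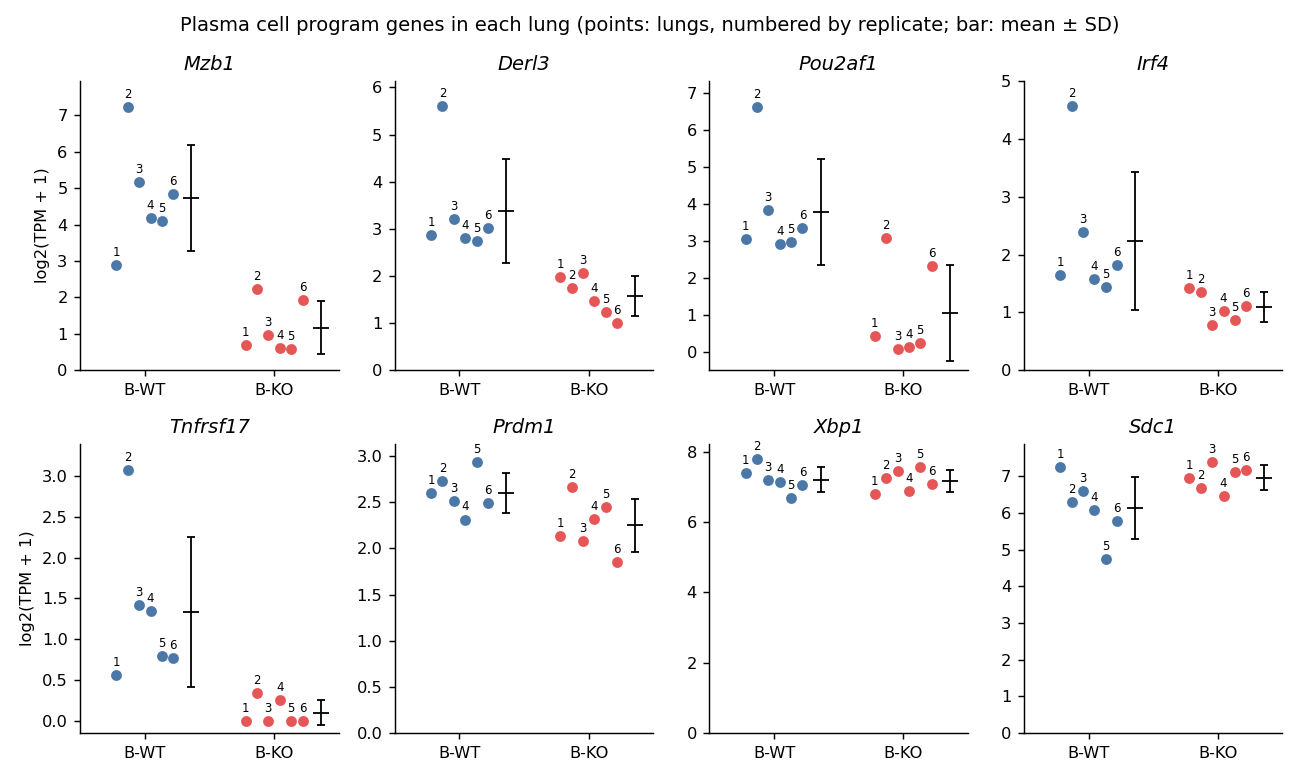
Each panel shows 1 gene as log2(TPM + 1) on the vertical axis for the 6 IL-10 B-WT lungs (blue) and the 6 IL-10 B-KO lungs (red), numbered by replicate, with the mean and SD in black. Mzb1, Derl3, Irf4 and Tnfrsf17 do not overlap between genotypes. Pou2af1 overlaps through IL-10 B-KO replicate 2, and Xbp1, Prdm1 and Sdc1 overlap as well. IL-10 B-WT replicate 2 is the highest point of the first 5 panels.

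Mzb1 (ENSMUSG00000024353, GRCm38 chromosome 18, 35647267 to 35649367, minus strand) encodes an ER protein that helps to assemble and secrete IgM and other antibodies. IL-10 B-WT replicates 1 to 6 gave 6.42, 148.88, 35.02, 17.20, 16.12 and 27.82 TPM. IL-10 B-KO replicates 1 to 6 gave 0.61, 3.68, 0.94, 0.52, 0.51 and 2.79 TPM. The lowest IL-10 B-WT lung was thus above the highest IL-10 B-KO lung, and 4 IL-10 B-KO lungs were below 1 TPM. Mean expression was 41.9 ± 53.3 TPM in the IL-10 B-WT lungs and 1.51 ± 1.38 TPM in the IL-10 B-KO lungs (SD, n = 6). The log2 fold change was -3.57 (SE 0.58, 95% interval -4.83 to -2.32), an 11.9-fold lower value on the log2(TPM + 1) scale (limma, adjusted p = 0.0195). The exact permutation test gave its smallest p, 0.00216. The call was lost when the filter on low values was left out (adjusted p = 0.0815) and when any 1 of 4 lungs was left out, with adjusted p of 0.0510 without IL-10 B-WT replicate 5 and 0.0604, 0.0526 and 0.0627 without IL-10 B-KO replicates 1, 3 and 5. The log2 fold change stayed between -3.94 and -3.07 in these and the other leave-one-out fits, and was -3.07 (adjusted p = 0.00764) without IL-10 B-WT replicate 2.

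Derl3 (ENSMUSG00000009092, chromosome 10, 75893413 to 75895941, plus strand) encodes the secretory-cell member of the Derlin proteins, which pass misfolded proteins out of the ER. IL-10 B-WT replicates 1 to 6 held 6.27, 47.96, 8.23, 6.03, 5.68 and 7.11 TPM. IL-10 B-KO replicates 1 to 6 held 2.92, 2.37, 3.16, 1.76, 1.36 and 0.99 TPM. The groups were separate, and apart from replicate 2 the IL-10 B-WT lungs lay close together, at 6.66 ± 1.02 TPM (SD, n = 5), against 2.09 ± 0.868 TPM in the IL-10 B-KO lungs (SD, n = 6). Limma gave a log2 fold change of -1.80 (SE 0.43, 95% interval -2.73 to -0.86) and missed the threshold in limma (adjusted p = 0.103), while the exact permutation test gave its smallest p, 0.00216. Derl3 passed the threshold without IL-10 B-WT replicate 2 (log2 fold change -1.35, adjusted p = 0.0152) and without IL-10 B-WT replicate 1 (-1.90, adjusted p = 0.0404). Its relatives Derl1 and Derl2, made by most cells, had positive log2 fold changes that were not called, 0.23 (SE 0.17) and 0.26 (SE 0.19).

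Irf4 (ENSMUSG00000021356, chromosome 13, 30749226 to 30766976, plus strand) encodes a transcription factor that activated B cells and T cells need and that commits B cells to secretion. It was expressed at 1.71 TPM at the lowest, 2.33 at the median and 22.83 at the highest in the IL-10 B-WT lungs. In the IL-10 B-KO lungs these values were 0.72, 1.10 and 1.69 TPM. The groups did not overlap, but the nearest lungs of the groups, at 1.71 and 1.69 TPM, were close. Between genotypes the log2 fold change was -1.14 (SE 0.44, 95% interval -2.10 to -0.19; limma, unadjusted p = 0.0226, adjusted p = 0.341), and -0.68 (adjusted p = 0.317) with IL-10 B-WT replicate 2 left out. The exact permutation test gave its smallest p, 0.00216. T cells and dendritic cells also make Irf4. The summed level of 11 T cell markers ranged from 31.9 to 307 TPM in the IL-10 B-WT lungs, with its highest value in replicate 2, and from 51.2 to 317 TPM in the IL-10 B-KO lungs. That of 6 dendritic cell markers ranged from 36.3 to 77.8 TPM and from 24.6 to 59.4 TPM, and their part in the values of Irf4 was not tested. Of the 9 interferon regulatory factor genes tested, 0 were called in either direction, Irf4 alone reached an unadjusted p of 0.05, and 7 had positive log2 fold changes, the largest in Irf7 (1.20, SE 0.63, adjusted p = 0.446).

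Pou2af1 (ENSMUSG00000032053, chromosome 9, 51213708 to 51240080, plus strand) had values of 7.31, 98.42, 13.26, 6.56, 6.77 and 9.14 TPM from the first to the last IL-10 B-WT replicate. IL-10 B-KO replicates 1 to 6 had 0.35, 7.49, 0.06, 0.09, 0.18 and 3.96 TPM. The IL-10 B-KO lungs thus fell apart, with replicate 2 within the IL-10 B-WT range, replicate 6 below it and the other 4 at 0.35 TPM or less. On the log2 scale the difference was -2.74 (SE 0.69, 95% interval -4.24 to -1.25) and was not called (limma, adjusted p = 0.122; exact permutation test, p = 0.00866, n = 6). It passed the threshold without IL-10 B-KO replicate 2 (-3.15, adjusted p = 0.0440) or without IL-10 B-WT replicate 1 (-2.89, adjusted p = 0.0445). Pou2f2, which encodes the partner OCT2 that OCA-B binds, was at 5.58 ± 6.37 TPM in the IL-10 B-WT lungs and 4.43 ± 1.52 TPM in the IL-10 B-KO lungs (SD, n = 6), with a log2 fold change of 0.23 (SE 0.52, adjusted p = 0.863).

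Tnfrsf17 (ENSMUSG00000022496, chromosome 16, 11313812 to 11320074, plus strand), the receptor of the long-lived plasma cell, had values of 0.48, 7.45, 1.68, 1.55, 0.74 and 0.70 TPM from the first to the last IL-10 B-WT replicate. It was listed at 0 in 4 IL-10 B-KO lungs and at 0.27 and 0.19 TPM in replicates 2 and 4. Every IL-10 B-WT lung was above every IL-10 B-KO lung (exact permutation test, p = 0.00216, n = 6). With at least 1 TPM in 3 libraries it did not pass the filter on low values. In the fit without the filter its log2 fold change was -1.23 (SE 0.36, adjusted p = 0.376 over 31629 genes). The other receptors of BAFF and APRIL did not share 1 pattern. Tnfrsf13c, the BAFF receptor of B cells, was at 16.0 ± 29.8 TPM in the IL-10 B-WT lungs and 1.12 ± 1.42 TPM in the IL-10 B-KO lungs, with a log2 fold change of -2.05 (SE 0.69, adjusted p = 0.295). Tnfrsf13b, which encodes TACI, was at 23.1 ± 24.2 TPM and 18.4 ± 5.16 TPM, with a log2 fold change of 0.10 (SE 0.45, adjusted p = 0.931). The IL-10 B-WT means of Tnfrsf13c and Tnfrsf13b were raised by replicate 2, at 76.73 and 70.89 TPM. The medians were 4.175 TPM in the IL-10 B-WT and 0.385 TPM in the IL-10 B-KO lungs for Tnfrsf13c, and 14.13 and 19.39 TPM for Tnfrsf13b.

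Promoters were searched for short motifs because transcription factors of the program act through them. The 250 bases before the start of transcription were read from RefSeq on GRCm38.p6, which gave a window for 7 of the 8 members (all but Mzb1), and 5 motifs were searched on both strands, chosen after the sequences were seen. These were TGACGTGG, the unfolded protein response element bound by XBP1, the ER stress element (CCAAT, any 9 bases, CCACG), the octamer ATTTGCAT bound by OCT factors with OCA-B, GAAA repeated after any 2 bases and GGAA followed after any 2 bases by GAAA, both bound by IRF factors. Matches were found in 3 windows, and these 3 are shown, 5′ to 3′ along the gene's strand with the match in capitals.
Pou2af1: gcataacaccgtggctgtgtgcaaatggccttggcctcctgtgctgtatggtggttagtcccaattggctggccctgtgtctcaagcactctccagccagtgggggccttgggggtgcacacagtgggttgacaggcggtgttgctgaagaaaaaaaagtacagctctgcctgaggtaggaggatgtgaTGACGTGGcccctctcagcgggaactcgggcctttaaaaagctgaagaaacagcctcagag
Derl3: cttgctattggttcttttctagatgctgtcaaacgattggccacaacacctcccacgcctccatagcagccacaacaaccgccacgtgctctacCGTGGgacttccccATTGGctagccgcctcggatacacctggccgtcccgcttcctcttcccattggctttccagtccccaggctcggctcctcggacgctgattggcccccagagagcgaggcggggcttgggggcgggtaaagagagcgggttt
Tnfrsf17: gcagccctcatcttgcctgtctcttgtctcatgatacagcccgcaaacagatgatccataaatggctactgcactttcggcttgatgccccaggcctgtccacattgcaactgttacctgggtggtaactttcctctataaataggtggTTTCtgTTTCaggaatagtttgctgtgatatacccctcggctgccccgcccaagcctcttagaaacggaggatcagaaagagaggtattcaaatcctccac
In Pou2af1 (chr9:51213440-51213689) the unfolded protein response element lay 61 to 54 bases before the start, and 0.563% of all 32851 promoter windows hold this motif. In Derl3 (chr10:75893148-75893397) the ER stress element lay on the opposite strand, 156 to 138 bases before the start, and 0.113% of the windows hold one. In Tnfrsf17 (chr16:11313559-11313808) the repeated GAAA lay on the opposite strand, 101 to 92 bases before the start, as in 2.98% of the windows. The octamer, held by 1.60% of the windows, and the GGAA and GAAA pair, held by 2.30%, were in none of the 7 windows, and those of Xbp1, Prdm1, Irf4 and Sdc1 held no match. The RefSeq starts differ from the gene coordinates given here. The Prdm1 window (chr10:44458749-44458998) lay inside the span of its gene, and those of Sdc1 and Irf4 overlapped the first bases of theirs. A match is a run of letters and was not tested for binding.

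Xbp1 (ENSMUSG00000020484, chromosome 11, 5520659 to 5525893, plus strand) had the highest median level per length of the members in both genotypes, and was above Sdc1, the next, in 6 of 6 IL-10 B-WT lungs and 4 of 6 IL-10 B-KO lungs. It ranged from 102.83 TPM through a median of 144 to 220.26 TPM in the IL-10 B-WT lungs. In the IL-10 B-KO lungs it ranged from 110.60 TPM through a median of 143 to 187.92 TPM. The groups overlapped almost entirely, with 3 of 6 IL-10 B-KO lungs above the IL-10 B-WT median. The fitted log2 fold change was -0.04 (SE 0.20, 95% interval -0.46 to 0.38; limma, adjusted p = 0.940; exact permutation test, p = 0.840, n = 6), and 0.07 with IL-10 B-WT replicate 2 left out. Changes within that interval cannot be told from none in these lungs. Values per gene do not tell the spliced Xbp1 transcript, which encodes the active factor, from the unspliced one.

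A list of 36 genes taken as XBP1 targets, mostly chaperones, translocon subunits and disposal factors of the ER, was all above the filter. It also holds Ern1, which encodes IRE1, and the ER stress sensor gene Atf6. Other factors of the ER stress response drive some of these genes too, so that the list does not read XBP1 alone. Of the 36 genes, 0 were called lower and 0 higher, and 0 reached an unadjusted p of 0.05. Their median log2 fold change was 0.22, between -0.29 and 0.65, with 32 positive and 4 negative, beside 0.10 over all genes, of which 9580 were positive and 5568 negative. Relative to the median of all genes, which centring of the libraries moved from 0.10 to -0.0085, the list's median lay between 0.05 and 0.21 over the alternatives. Not set against that median, it was lowest with quantile normalization (0.07) and, of the fits that leave out 1 lung, without IL-10 B-WT replicate 5 (0.10), and also lower without IL-10 B-KO replicates 3 (0.13) and 5 (0.14). Hspa5, the ER chaperone BiP, was at 186 ± 92.1 TPM in the IL-10 B-WT lungs and 226 ± 83.0 TPM in the IL-10 B-KO lungs (SD, n = 6; log2 fold change 0.36, SE 0.33, adjusted p = 0.639). Among the largest differences were those of Ckap4, an ER membrane protein (0.65, SE 0.36, adjusted p = 0.465), Sdf2l1, a cofactor of BiP (0.58, SE 0.41, adjusted p = 0.536), and Sec61b, of the translocon (0.49, SE 0.27, adjusted p = 0.465). Dnajb9, a BiP cochaperone and XBP1 target, moved with Xbp1 from lung to lung within the genotypes (Pearson's r = 0.95 over 12 lungs), as described below for the other members.

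Prdm1 (ENSMUSG00000038151, chromosome 10, 44437177 to 44528501, minus strand) ranged from 3.97 TPM through a median of 4.91 to 6.63 TPM in the IL-10 B-WT lungs. In the IL-10 B-KO lungs it ranged from 2.62 TPM through a median of 3.69 to 5.35 TPM. The ranges overlapped, and 3 IL-10 B-KO lungs lay under the whole IL-10 B-WT range. The log2 fold change was -0.35 (SE 0.17, 95% interval -0.72 to 0.02; limma, adjusted p = 0.422; exact permutation test, p = 0.0390, n = 6). IL-10 B-WT replicate 2, which was 8.66 times the median of the other IL-10 B-WT lungs for Mzb1, was 1.19 times that median for Prdm1. BLIMP-1 is also made by T cells, macrophages and endothelium. Of the related PR domain genes tested with it, 5 in all, 0 were called, and Prdm8 was lower by unadjusted p (log2 fold change -0.39, SE 0.16, unadjusted p = 0.0293, adjusted p = 0.355).

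Sdc1 (ENSMUSG00000020592, chromosome 12, 8771323 to 8793715, plus strand) had values of 153.01, 77.28, 96.67, 67.28, 26.02 and 53.93 TPM from the first to the last IL-10 B-WT replicate. IL-10 B-KO replicates 1 to 6 had 124.22, 101.37, 166.13, 87.63, 137.42 and 143.69 TPM. All 6 IL-10 B-KO lungs were above the IL-10 B-WT median, although the ranges overlapped through IL-10 B-WT replicates 1 and 3. Limma gave a log2 fold change of 0.83 (SE 0.34, 95% interval 0.11 to 1.56), a 1.78-fold higher value that was not called (limma, unadjusted p = 0.0272, adjusted p = 0.351; exact permutation test, p = 0.0411, n = 6), and it was between 0.56 and 1.06 with each lung left out in turn. Epithelium also makes Sdc1. Of 10 epithelial markers, all tested, 0 were called, 4 were higher by unadjusted p (Krt8, Krt18, Krt19 and Sftpb), and 2 had negative log2 fold changes (Scgb1a1, -1.12, SE 0.56, and Ager, -0.11, SE 0.32). Krt8, a keratin of simple epithelium, had a log2 fold change of 1.18 (SE 0.41, adjusted p = 0.304). The list's summed level, which the secretoglobin Scgb1a1 and the surfactant gene Sftpc dominate, ranged from 29620 to 101900 TPM in the IL-10 B-WT lungs (median 61440) and from 21490 to 111000 TPM in the IL-10 B-KO lungs (median 31110), no marker was at 0, and its part in the values of Sdc1 was not tested. In the syndecan family, Sdc2, made by mesenchymal cells and endothelium, was called lower, at 22.8 ± 5.52 TPM in the IL-10 B-WT lungs and 9.69 ± 2.86 TPM in the IL-10 B-KO lungs (SD, n = 6; log2 fold change -1.17, SE 0.23, adjusted p = 0.0392). Sdc4 and Sdc3 had log2 fold changes of 0.64 (SE 0.30, adjusted p = 0.401) and 0.20 (SE 0.21, adjusted p = 0.695).

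**Figure D2:**
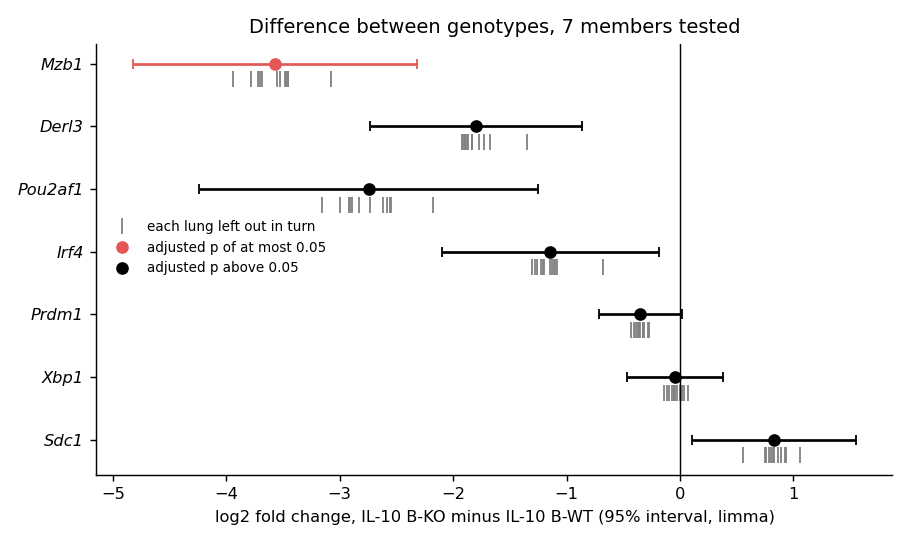
The horizontal axis gives the log2 fold change (IL-10 B-KO minus IL-10 B-WT) of the 7 members tested, with the 95% interval from limma as a bar, and the grey ticks give the same value with each of the 12 lungs left out in turn. Mzb1 (red) is the member called, at -3.57, the intervals of Xbp1 and Prdm1 include 0, and the ticks of Xbp1 fall on both sides of it.

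The order of the members by level differed between genotypes. In the IL-10 B-WT lungs the median TPM fell from Xbp1 (144) through Sdc1 (72.3), Mzb1 (22.5), Pou2af1 (8.22), Derl3 (6.69), Prdm1 (4.91) and Irf4 (2.33) to Tnfrsf17 (1.15), and the ranges of all neighbours overlapped, although each gene was above the next in 5 or 6 of the 6 lungs. In the IL-10 B-KO lungs the order was Xbp1 (143), Sdc1 (131), Prdm1 (3.69), Derl3 (2.07), Irf4 (1.10), Mzb1 (0.775), Pou2af1 (0.265) and Tnfrsf17 (0). Only Sdc1 and Prdm1 were separate among these neighbours, and Irf4 was above Mzb1 in 3 of 6 lungs. By their medians, Mzb1 and Pou2af1 stood above Prdm1, Derl3 and Irf4 in the IL-10 B-WT lungs and below them in the IL-10 B-KO lungs, although Pou2af1 was above all 3 in IL-10 B-KO replicates 2 and 6 and Mzb1 in replicate 6.

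Antibody genes, which plasma cells transcribe at high rates, were examined as part of a wider list. Of 23 tested genes in this list of plasma cell genes, 6 were called lower and 0 higher, and all 6 encode antibody chains or the J chain that joins IgA and IgM. Jchain was at 593 ± 784 TPM in the IL-10 B-WT lungs and 0.917 ± 1.33 TPM in the IL-10 B-KO lungs (SD, n = 6; log2 fold change -7.60, SE 0.76, adjusted p = 6.62e-04). Igha, the constant region of IgA, had a log2 fold change of -9.21 (SE 0.85, adjusted p = 3.97e-04), and the kappa constant region gene Igkc one of -8.55 (SE 1.28, adjusted p = 0.0125). Ighm, of IgM, was at 177 ± 220 TPM and 38.4 ± 23.3 TPM and was not called (-1.81, SE 0.60, adjusted p = 0.285). Without immunoglobulin genes and Jchain, 15 tested genes remained, of which 0 were called, 1 (Zbtb20, a zinc finger factor of plasma cells and many other cells) was lower by unadjusted p, and the median log2 fold change was 0.06. Among these, Slamf7 was at 0.75 (SE 0.58), Cd38 at 0.13 (SE 0.21) and Tent5c at -0.32 (SE 0.20), genes that other leukocytes or tissue cells also make.

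Genes of the B cell itself were examined beside the program. They include Cd79a, the site of the mb1-Cre driver, and the driver's part in its level was not tested. Of 26 tested, 1 (Cd79a) was called lower and 0 higher, 16 were lower by unadjusted p (5.71% of all genes were), and the median log2 fold change was -1.47, or -0.90 with IL-10 B-WT replicate 2 left out. Cd79a had a log2 fold change of -4.16 (SE 0.71, adjusted p = 0.0222), and Pax5, the factor that holds B cell identity, was at 16.6 ± 14.1 TPM in the IL-10 B-WT lungs and 1.89 ± 3.24 TPM in the IL-10 B-KO lungs (-2.87, SE 0.64, adjusted p = 0.0731). The call of Cd79a, and with it the count of the list, was lost when any 1 of 5 lungs was left out, IL-10 B-WT replicates 4 and 5 and IL-10 B-KO replicates 1, 3 and 5, while the count rose to 3 without IL-10 B-WT replicate 1 and to 4 without IL-10 B-KO replicate 2. Genes that B cells share with other cells, such as Bcl6 (0.11, SE 0.27) and Cd37 (0.39, SE 0.46), were not called. The summed level of 8 B cell markers, Cd79a among them, ranged from 84.1 to 966 TPM in the IL-10 B-WT lungs. In the IL-10 B-KO lungs the sum ranged from 7.71 to 97.0 TPM, 4 of the 8 being listed at 0 in at least 1 lung. Its part in the lower levels of the members was not tested.

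Among the IL-10 B-KO lungs, replicates 2 and 6 differed from the other 4, and the members divided over them. Ms4a1, which encodes CD20, was at 4.71 and 3.69 TPM in these 2 lungs and at 0.13 TPM or less in the other 4. Cd79b, a B cell receptor signaling chain, was at 33.98 and 21.30 TPM in them and at 6.82 TPM or less in the other 4. Of the 26 B cell genes tested, 23 and 19 were at or above the lowest IL-10 B-WT lung in replicates 2 and 6, against 8 to 10 in the other 4. Pou2af1 followed these genes, at 91.1% and 48.1% of the IL-10 B-WT median in the 2 lungs and at 4.26% or less in the others. Mzb1 was at 16.3% and 12.4% of that median, above the other 4 lungs (4.18% or less) but under the whole IL-10 B-WT range. Derl3 was at 35.4% and 14.8%, and the other 4 lungs reached 47.2%. Irf4, at 1.54 and 1.17 TPM, was above replicates 3, 4 and 5 (0.72, 1.04 and 0.83 TPM) and below replicate 1 (1.69 TPM). Jchain was at 0.641% and 0.840% of its IL-10 B-WT median in the 2 lungs and at 0.0312% or less in the others. Igkc was at 216.7 and 146.64 TPM in them and at 2.24 TPM or less in the other 4. Igha was at 12.83 and 17.38 TPM against 1.61 TPM or less. The antibody chain gene Iglc2 was at 44.37 and 23.99 TPM against 0.75 TPM or less. The called antibody genes Ighg2b and Ighg2c exceeded the other 4 lungs in replicate 6 but not in replicate 2. The 2 lungs were picked out by their values, so that no test was made of these differences.

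**Figure D3:**
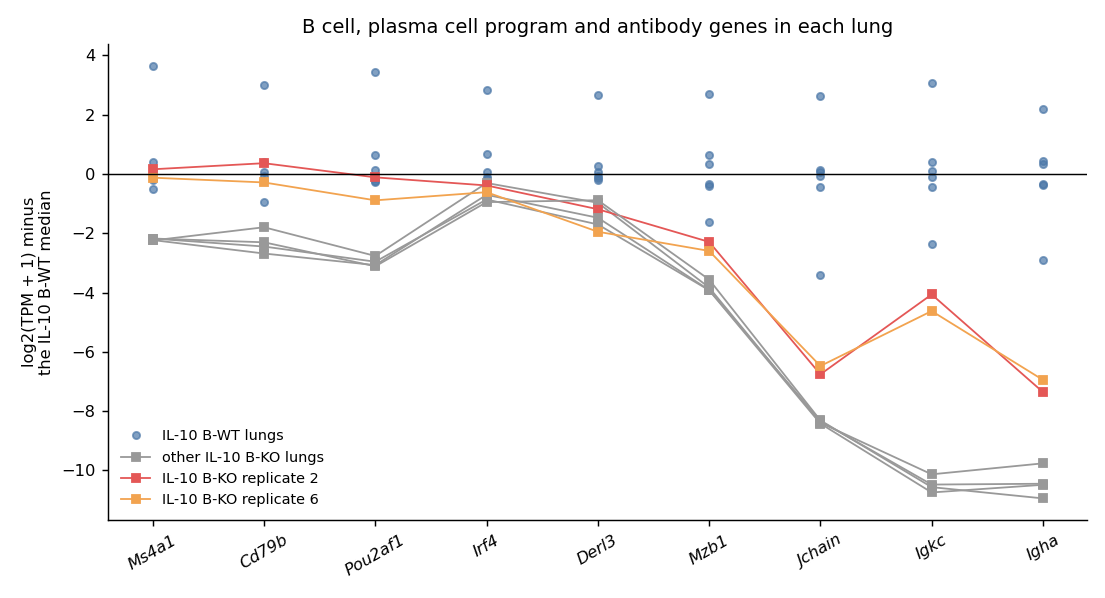
Each gene on the horizontal axis is shown as log2(TPM + 1) minus the median of the IL-10 B-WT lungs, for the 6 IL-10 B-WT lungs (blue points) and the 6 IL-10 B-KO lungs (joined squares). IL-10 B-KO replicates 2 (red) and 6 (orange) lie near the IL-10 B-WT lungs from Ms4a1 to Pou2af1. They lie below all IL-10 B-WT lungs at every gene from Irf4 to Igha.

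Members also differed in which genes they moved with. For each member, the 3 genes most alike, or those of them that are reported here, in their deviations from the genotype means over the 12 lungs were found by Pearson's r of log2(TPM + 1), given here as a description of lungs that share a genotype and, for IL-10 B-WT replicate 2, a high B-lineage signal. Mzb1 was most like the antibody variable segments Igkv6-17 (r = 0.97), Ighv1-72 (0.97) and Ighv1-53 (0.95), and these were 0.95, 0.92 and 0.92 with IL-10 B-WT replicate 2 left out. Reads of such segments can be shared between near-identical copies. Pou2af1 was most like the B cell surface genes Ms4a1 (0.98) and Cd79b (0.98), with 0.97 and 0.95 without that lung. Derl3 was most like Rab30, Sbk1 and Foxo1 (0.96, 0.96 and 0.94), and Irf4 like H2-Eb2, Mef2b and Gm15848 (0.97, 0.95 and 0.95), but without that lung these fell to 0.84, 0.72 and 0.67 and to 0.77, 0.67 and 0.46. Xbp1 was most like Trak2 (0.95), Dnajb9 (0.95) and Farp2 (0.93), Prdm1 like Gm13849 (0.89), Gm50069 (0.77) and Gm16141 (0.71), and Sdc1 like Dram1 (0.98) and Vps9d1 (0.98). Between members, r was 0.89 for Mzb1 and Pou2af1 and 0.76 without IL-10 B-WT replicate 2, while Mzb1 and Derl3 went from 0.71 to 0.06 and Derl3 and Irf4 from 0.92 to 0.39. Xbp1 and Sdc1 stood at 0.63, and 0.72 without it.

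Genes of the attraction and survival of plasma cells were examined as a list. It also holds Bcl2l11, whose product BIM promotes cell death (log2 fold change 0.38, SE 0.28). Another member, Pigr, encodes the receptor that carries antibodies across epithelium (0.78, SE 0.57), and both count among the positive genes. Of 21 tested, 0 were called in either direction, 19 had positive log2 fold changes, as did 9580 of all 15148 genes, and the median was 0.40. Leaving out 1 lung gave a median between 0.20 and 0.63, the values without replicates 5 and 2 of the IL-10 B-WT group, and 0.62 without its replicate 1. Tnfsf13, which encodes APRIL, the ligand of BCMA, was at 9.38 ± 5.20 TPM in the IL-10 B-WT lungs and 16.1 ± 3.68 TPM in the IL-10 B-KO lungs (SD, n = 6; log2 fold change 0.91, SE 0.38, unadjusted p = 0.0330, adjusted p = 0.363), the one gene of the list with an unadjusted p of at most 0.05. Il6 had a log2 fold change of 1.12 (SE 0.71, adjusted p = 0.506) and Cxcl12, which attracts plasma cells, one of 0.56 (SE 0.42, adjusted p = 0.565). Markers of macrophages and neutrophils, which make APRIL, had medians of 1.57 over 8 genes and 1.72 over 6 genes, with 5 and 6 higher by unadjusted p and 0 called, and their summed levels overlapped between genotypes (141 to 1716 against 535 to 3146 TPM, and 272 to 2457 against 1035 to 7438 TPM). Their part in the level of Tnfsf13 was not tested. Proliferation genes, which dividing plasmablasts but also other cells express, were not called, although all 10 had positive log2 fold changes (median 1.02) and 3 were higher by unadjusted p, among them Cdk1 (1.61, SE 0.61, adjusted p = 0.330). For plasmacytoid dendritic cells, which share several members with plasma cells, 7 of 9 markers were tested, 0 were called and the median was 0.05. Their summed levels overlapped (773 to 1268 against 644 to 1223 TPM), but Pltp and Bst2 dominate this sum. Mean Pltp was 645 TPM for IL-10 B-WT and 425 TPM for IL-10 B-KO, and mean Bst2 was 356 and 479 TPM. Siglech had means of 1.66 and 1.53 TPM, so the overlap of the sums does not describe markers at such low levels.

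**Figure D4:**
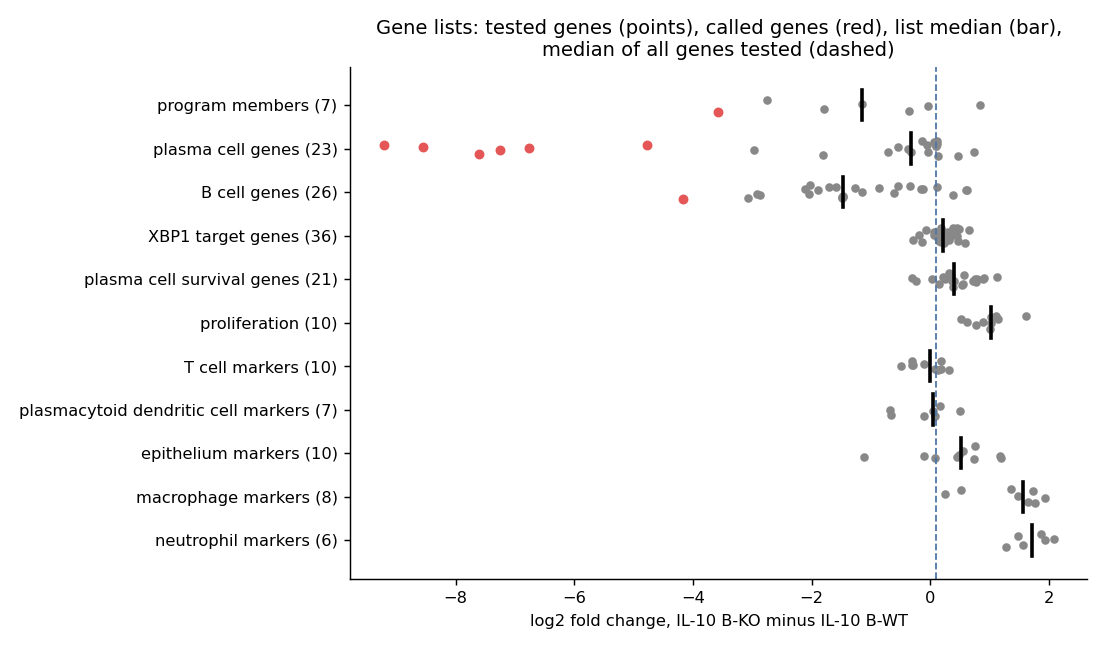
Each point is 1 tested gene at its log2 fold change (IL-10 B-KO minus IL-10 B-WT, horizontal axis), by list with the number tested in parentheses, and called genes are red. The list medians (black bars) of the members (-1.14) and the B cell genes (-1.47) lie left of the median of all genes (dashed, 0.10), and that of the XBP1 targets (0.22) lies near it.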

How the data were processed

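Whole-lung RNA of 12 mice was sequenced, 6 per genotype, and each column was assigned by its name. The authors deposited TPM per gene and library, calculated with RSEM and rounded to 2 decimals. The submitters' processing notes also name fastp, HISAT and GRCm38.p5, without versions. TPM keep no depth, so that counting error and detection limits are unknown and precision rests on the spread between lungs. The table gave no counts, so no count model was fitted.

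Differential expression was tested with limma 3.58.1 (R 4.3.3, trend) on log2(TPM + 1), with no covariate beside genotype and Benjamini-Hochberg adjustment over 15148 genes, after a run on simulated data. The paper lists several tools and limma was taken from these. Single genes were compared by exact permutation of 924 arrangements. Alternatives were another pseudocount (0.1), no filter or a filter on mean TPM (at least 5), array weights, quantile normalization, centring on library medians, TPM rescaled with antibody genes removed, a replicate block, other thresholds and each lung left out. All 8 members were named, with up to 6 genes per list, called ones first and then by size of log2 fold change, besides Il10, Cd79a and the 3 genes most like each member. A pair of genes that this rule names are not reported here. Further genes were named for their roles after their values were seen. The members and lists were chosen with earlier results of these data known. Coordinates are from GENCODE M21 and promoters from RefSeq. That the 12 samples are separate mice is taken from the series' design. Other steps used SciPy 1.17.1, pandas 2.3.3, matplotlib 3.10.9 and NumPy 2.4.6 in Python 3.11.15. 0 columns of values were left unused.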

Additional observations from a re-analysis of the deposited data

Results flagged for a closer look

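All values flagged here are from IL-10 B-WT replicate 2, which stood above the other 5 lungs by a gap past Dixon's 95% critical value for 6 samples. It was at 148.88 TPM for Mzb1, 47.96 TPM for Derl3, 22.83 TPM for Irf4, 98.42 TPM for Pou2af1 and 7.45 TPM for Tnfrsf17, and, outside the program, at 258.64 TPM for Cd79a and 2170.06 TPM for Jchain. Over the median of the other IL-10 B-WT lungs these were 8.66, 7.65, 10.7, 13.5, 10.1, 11.3 and 6.39 times. The same lung was at 1.57 times for Xbp1, 1.15 times for Sdc1 and 1.19 times for Prdm1, and these were not flagged. In all, 7 of 22 groups of 6 lungs were flagged by Dixon's criterion, applied to TPM and not to log2(TPM + 1). Its rate of about 1 in 20 groups by chance holds for normally distributed values, which was not tested here. The 7 share 1 lung, so that they are not separate events. Without this lung the log2 fold changes were -3.07 for Mzb1, -1.35 for Derl3, -0.68 for Irf4 and -2.18 for Pou2af1, and Derl3 passed the threshold (limma, adjusted p = 0.0152). The source of the high B-lineage signal in this lung was not tested.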

How the results depend on the processing

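The count of members called, 1 as reported, was 0 with no filter on low values, 3 with array quality weights and 4 by unadjusted p with the same minimum fold change, and between 0 and 3 in the fits that leave out 1 lung. The count of plasma cell genes, 6 as reported, was 2 with no filter and between 5 and 6 with each lung left out. That of B cell genes, 1 as reported, was 0 with no filter, 6 with array weights and 16 by unadjusted p, and between 0 and 4 with each lung left out. XBP1 targets and survival genes stayed at 0 in every alternative run. The log2 fold change of Xbp1, -0.04 as reported, ranged from -0.14 to 0.07 with single lungs left out and turned positive without IL-10 B-WT replicate 2 (0.0749), IL-10 B-KO replicate 1 (0.0349) and IL-10 B-KO replicate 4 (0.0181), while the signs of the other 6 tested members did not change. With array weights, 318 of all genes were called in place of 75, of which 237 were lower. The cause of these shifts was not tested. The replicate numbers did not pair the lungs, since the correlation of same-numbered lungs lay between -0.292 and 0.046 and 0 of 6 matched their own number best. With the replicate number as a block, 2 members (Mzb1 and Pou2af1) and 4 B cell genes were called, and 45 of all genes in place of 75. Over all genes, 5 lower and 1 higher were called with no filter, and between 15 and 576 with each lung left out, the highest without IL-10 B-WT replicate 1. Depth is unknown, so that values at or near 0, as for Tnfrsf17, have no stated limit.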
